A study of Mus musculus with 4 samples.

Results

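The genes described here are 35 listed markers of S phase and mitosis, measured by RNA sequencing of whole mouse lenses. They were taken by gene symbol from a list drawn up with earlier results of these data known, and they are 35 of the 56748 genes in the deposited table. All 35 passed the floor for testing, a mean of 0.1 FPKM across libraries, as did 15997 genes in all. FPKM is a count of fragments per kilobase of gene length scaled for the depth of the library, so levels of different genes can be set side by side on this scale. The deposited values were not scaled by the reads of each library alone: the depth they imply, as a multiple of the recovered reads, is 0.944 for the first mutant pool and 1.05 for the second, 1.05 for the first control pool and 0.987 for the other.

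Mutant libraries came from *Fsp1-cre;Pdgfrb+/D849V* mice and control libraries from *Fsp1-cre;Pdgfrb+/+* mice, with 2 libraries per genotype and lenses taken at 10 to 12 days of age. The *Pdgfrb* D849V allele is a conditional knock-in that encodes a hyperactive PDGF receptor beta from the endogenous locus once Cre has acted. Cre is driven by the *Fsp1* (*S100a4*) promoter, which is not restricted to the lens, and the mice were bred on an FVB/N background in a line that carried a *Rosa-LSL-tdTomato* reporter allele. Each library is a pool of lenses from several mice. According to the labels both control pools carried cre, whereas the methods of the study describe control pools that also took in mice without cre.

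The lens grows throughout life from a single layer of epithelial cells on its anterior surface. Division in this layer is concentrated near the equator, where daughter cells leave the cell cycle and elongate into fibre cells that no longer divide. Cyclin E with CDK2 and the E2F transcription factors open S phase, the MCM complex unwinds the DNA, and CDK1 with cyclin B drives entry into mitosis. The anaphase-promoting complex then destroys the mitotic cyclins so that the cell can divide. Many S phase genes carry E2F sites near their start, and many mitotic genes carry a CCAAT box together with the cell cycle genes homology region, or CHR.

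No listed gene differed between genotypes after adjustment. Of the 35 genes, 0 had a Benjamini-Hochberg adjusted p under 0.05 in limma, and this threshold was passed by 6 of all 15997 genes tested, which is 0.0375%. An unadjusted p under 0.05 was given to 3 listed genes, or 8.57% of them, against 6.31% of all genes tested. *Pcna* and *Ube2c* were higher in mutant lenses and *Ccne1* was lower, and the background for these directions is 3.39% for higher and 2.92% for lower. With voom, a count model run on reads recovered from the FPKM, 0 listed genes passed the adjusted threshold against 0.0875% of all genes. Unadjusted, voom gave 3 listed genes a p under 0.05, *Mcm5*, *Cenpf* and *Ube2c*, against 7.43% of all genes, so that *Ube2c* alone was named by both tests.

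By direction, 11 of the 35 genes had a higher and 24 a lower mean in mutant lenses. The lower share was 68.6%, against 49.3% of all genes tested, and the median log2 fold change was -0.12 against 0.004 over all genes. Both mutant libraries lay below both control libraries for 9 listed genes (*Mcm2*, *Mcm5*, *Mcm6*, *Ccne1*, *Ccne2*, *Plk1*, *Top2a*, *Cenpe* and *Cenpf*), which is 25.7% of the list beside a background of 18.3%. Both lay above both control libraries for 5 (*Pcna*, *Ube2c*, *Rrm2*, *Cdk2* and *Ccnb1*), which is 14.3% beside 18.2%. For the other 21 genes the groups overlapped. With 2 libraries per group an exact permutation test of one gene cannot reach 0.05, so these orders are descriptions.

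The sequences below are promoters of some of the listed genes, 2 helicase genes that were lower and 2 mitotic genes of opposite direction. Of these genes, *Ube2c* alone had an unadjusted limma p under 0.05, and the windows of *Ccne1* and *Pcna* are not shown. Each sequence is printed 5′ to 3′ on the strand of the gene, from 250 bases before to 50 bases after the RefSeq start. Capitals mark matches on either strand to the E2F words TTTCCCGC or TTTGGCGC, the CHR word TTTGAA and the CCAAT box CCAAT, and overlapping matches share their letters.
*Mcm5* promoter (GRCm38.p6, chr8:75109259-75109558, plus strand): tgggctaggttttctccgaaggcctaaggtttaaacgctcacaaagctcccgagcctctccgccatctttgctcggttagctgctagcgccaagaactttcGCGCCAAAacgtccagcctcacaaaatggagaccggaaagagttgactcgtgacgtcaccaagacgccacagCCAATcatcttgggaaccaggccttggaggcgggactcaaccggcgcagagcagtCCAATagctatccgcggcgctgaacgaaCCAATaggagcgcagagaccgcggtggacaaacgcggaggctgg
*Mcm6* promoter (GRCm38.p6, chr1:128359656-128359955, minus strand): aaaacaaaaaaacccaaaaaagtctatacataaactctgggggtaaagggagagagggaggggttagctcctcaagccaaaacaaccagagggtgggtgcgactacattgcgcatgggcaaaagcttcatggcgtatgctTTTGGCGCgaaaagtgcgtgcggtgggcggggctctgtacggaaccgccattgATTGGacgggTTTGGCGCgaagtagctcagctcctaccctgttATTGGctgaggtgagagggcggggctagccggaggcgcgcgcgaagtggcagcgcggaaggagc
*Ube2c* promoter (GRCm38.p6, chr2:164769679-164769978, plus strand): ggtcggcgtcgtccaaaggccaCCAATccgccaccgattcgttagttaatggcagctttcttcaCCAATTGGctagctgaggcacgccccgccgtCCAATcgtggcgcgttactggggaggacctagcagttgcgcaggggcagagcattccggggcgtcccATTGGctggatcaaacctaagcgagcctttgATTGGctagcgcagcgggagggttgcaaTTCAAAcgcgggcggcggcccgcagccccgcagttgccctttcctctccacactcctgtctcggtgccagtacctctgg
*Plk1* promoter (GRCm38.p6, chr7:122159185-122159484, plus strand): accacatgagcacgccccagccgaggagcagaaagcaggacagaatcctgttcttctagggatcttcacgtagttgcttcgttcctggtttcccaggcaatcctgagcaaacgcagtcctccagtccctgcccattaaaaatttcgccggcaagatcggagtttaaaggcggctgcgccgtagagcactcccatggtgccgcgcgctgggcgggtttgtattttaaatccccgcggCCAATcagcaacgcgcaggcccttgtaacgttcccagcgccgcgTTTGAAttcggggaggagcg

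The windows of *Mcm5* and *Mcm6* held E2F words and CCAAT boxes without a CHR word, and those of *Ube2c* and *Plk1* held a CHR word and CCAAT boxes without an E2F word. Windows were found in the RefSeq table for 30 of the 35 genes, 31 windows in all because *Mcm7* has 2. An E2F word was present in 19.4% of these windows and in 1.56% of all 32851 promoter windows of the same length. The CHR word was present in 41.9% against 17.9%, and the CCAAT box in 80.6% against 37.4%. By role, 5 of 7 licensing and helicase windows held an E2F word and 1 a CHR word, whereas 0 of 5 windows of mitotic entry genes held an E2F word and 4 a CHR word. Neither the E2F nor the CHR word was found in the windows of *Ccne1*, *Pcna* or *Rrm2*. A match is a description of the letters in the window and not a site known to be bound.

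**Figure D1:**
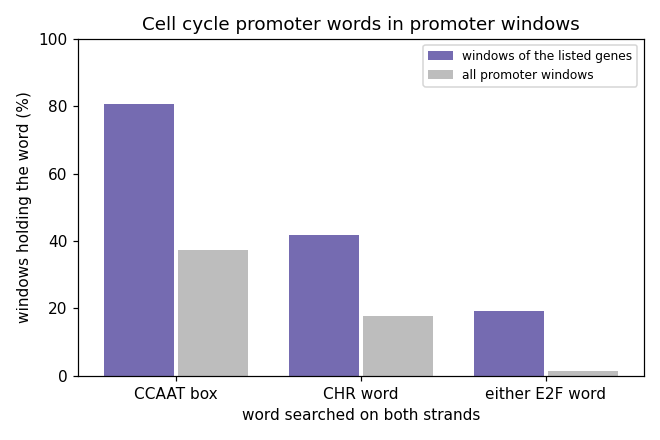
Share of promoter windows (%, y axis) that hold each word on either strand (x axis), for the 31 windows of the listed genes and for all 32851 windows. The CCAAT box was the most frequent of the 3 in the listed genes (80.6%), and the E2F words were the least frequent (19.4%).

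The listed genes were expressed at low levels in the whole lens. Their median mean FPKM was 0.835, 24 of them had a mean under 1, and 3 (*Pcna*, *Mcm7* and *E2f1*) had a mean of at least 2. Ranked among all genes tested, they ran from percentile 1.08 (*Cdc6*, whose mean of 0.105 lies just inside the floor) to percentile 80.3 (*Pcna*), with a median at 43.7. Each library held 18561682 to 18878768 reads and a gene rested on between 4 reads (*Cdc6*, mutant replicate 1) and 282 reads (*Mcm2*, control replicate 1). For 23 genes some library had fewer than 50 reads.

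**Figure D2:**
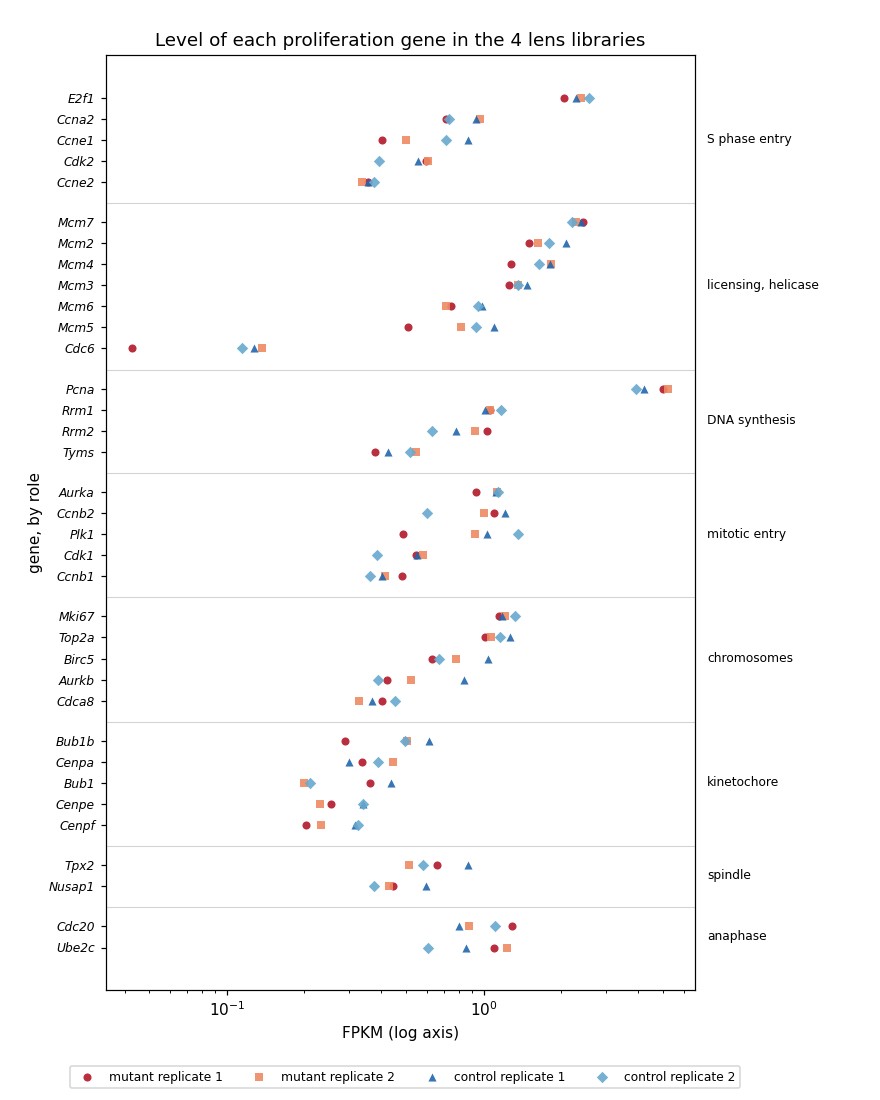
FPKM on a log axis (x) for each of the 35 genes (y, grouped by role), with 1 symbol per library. *Pcna* stands highest and *Cdc6* lowest, and for 21 genes the mutant and control symbols overlap.

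The tissue label was checked against markers of the lens. Crystallin genes took 58.6 to 62.9% of the reads in every library. The epithelial transcription factors *Foxe3* and *Pax6* stood at 103 and 122 FPKM and at 7.03 and 6.80 FPKM in mutant libraries, and at 109 and 119 FPKM and at 7.18 and 6.62 FPKM in control libraries. Of the 6 epithelial markers, 5 had lower means in mutant lenses, which is 83.3% against 49.3% of all genes tested. An unadjusted p under 0.05 was given to 0 of the 6 in limma and to 2 in voom. The shares of all genes tested were 6.31% in limma and 7.43% in voom. *Pdgfra*, a PDGF receptor of the lens epithelium, measured 4.02 and 5.25 FPKM in mutant and 5.86 and 5.32 FPKM in control libraries. It was the 1 marker of the 6 that was lower in both mutant libraries, which is 16.7% beside 18.3% of all genes tested. *Lim2*, a fibre cell membrane protein, is listed at 0 in all 4 libraries. In a bulk sample such as this, fewer dividing cells and less RNA per dividing cell cannot be told apart.

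Genes of S phase entry differed among themselves. *Ccne1* encodes cyclin E1, the partner that activates CDK2 at the start of S phase, and lies at chr7:37797409-37806959 in the deposited coordinates (mm39). It measured 0.400 and 0.499 FPKM in the mutant libraries and 0.869 and 0.713 in the control libraries. Both mutant libraries were below both controls, with means of 0.450 ± 0.0697 and 0.791 ± 0.110 FPKM (SD, n = 2 each). The log2 fold change was -0.70 (SE 0.23, 95% interval -1.27 to -0.12), with an unadjusted p of 0.0263 and an adjusted p of 0.761 in limma. In voom the adjusted p was 0.682, and leaving out each library in turn moved the log2 fold change between -0.83 and -0.57.

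The close relative *Ccne2*, which encodes cyclin E2 and had the lowest mean of this group, measured 0.353 and 0.336 FPKM in mutant and 0.353 and 0.373 FPKM in control libraries. The nearest libraries of the genotypes were equal at this precision, and its log2 fold change of -0.06 (SE 0.26) had an adjusted p of 0.972 in limma. *E2f1*, the transcription factor that activates S phase genes and the highest of the group, measured 2.05 and 2.40 FPKM in mutant and 2.28 and 2.56 FPKM in control libraries. Its groups overlapped, at a log2 fold change of -0.12 (SE 0.15, limma adjusted p 0.867). *Cdk2*, the kinase partner of cyclins E and A, measured 0.595 and 0.608 FPKM in mutant and 0.554 and 0.393 FPKM in control libraries. It was thus higher in both mutant libraries, at 0.31 on the log2 scale with an interval of -0.32 to 0.93 that holds 0. *Ccna2*, cyclin A2, was at 0.839 ± 0.176 FPKM in mutant and 0.831 ± 0.142 FPKM in control lenses (SD, n = 2 each). Summed over the 5 genes, the level was 4.11 and 4.80 FPKM in mutant and 4.99 and 4.77 in control libraries, which overlap.

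The MCM genes, whose products form the 6-subunit replicative helicase, were lower on average in mutant lenses for 5 of 6 subunits. That is 83.3% of them, against 49.3% of all genes tested. The median log2 fold change of *Mcm2* to *Mcm7* was -0.23. Both mutant libraries were below both controls for *Mcm2*, *Mcm5* and *Mcm6*, which is 50% of the subunits against 18.3% of all genes tested. *Mcm5* measured 0.506 and 0.819 FPKM in mutant and 1.09 and 0.937 FPKM in control libraries. *Mcm6* measured 0.745 and 0.712 FPKM in mutant and 0.981 and 0.953 FPKM in control libraries. *Mcm2* measured 1.5 and 1.63 FPKM in mutant and 2.08 and 1.80 FPKM in control libraries. The replicates of *Mcm6* were the closest of these, and its 2 genotypes were separated by more than either replicate gap, whereas mutant replicate 1 of *Mcm5* was well below mutant replicate 2. None of these passed the test: the log2 fold changes were -0.58 (SE 0.26) for *Mcm5*, -0.37 (SE 0.17) for *Mcm6* and -0.29 (SE 0.15) for *Mcm2*, with limma adjusted p-values of 0.809, 0.809 and 0.810. For *Mcm5* the log2 fold change was -0.28 without mutant replicate 1 and -0.88 without mutant replicate 2.

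The remaining subunits did not separate the genotypes. *Mcm7*, the highest of the licensing genes, measured 2.43 and 2.30 FPKM in mutant and 2.38 and 2.21 FPKM in control libraries, at a log2 fold change of 0.04 (SE 0.13, limma adjusted p 0.956). Its interval of -0.28 to 0.37 is among the narrowest of the list. *Mcm4* measured 1.28 and 1.82 FPKM in mutant and 1.82 and 1.65 FPKM in control libraries, so that mutant replicate 1 alone was low. *Mcm3* was at 1.31 ± 0.0746 FPKM in mutant and 1.42 ± 0.0857 FPKM in control lenses (SD, n = 2 each). *Cdc6*, which loads the helicase onto origins, was the lowest gene of the list and measured 0.0429 and 0.137 FPKM in mutant and 0.128 and 0.114 FPKM in control libraries. Its interval of -1.72 to 1.20 on the log2 scale was the widest of the 35, around a log2 fold change of -0.26 (SE 0.57, limma adjusted p 0.935). Over the 7 licensing and helicase genes the summed level was 7.76 and 8.78 FPKM in mutant and 9.97 and 9.02 FPKM in control libraries, with both mutant libraries lower.

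Genes of DNA synthesis and nucleotide supply ran the other way where they separated the groups. *Pcna* encodes the sliding clamp that holds DNA polymerase on the template and lies at chr2:132091082-132095234. It was the most abundant listed gene, at 4.98 and 5.24 FPKM in mutant and 4.20 and 3.93 FPKM in control libraries. Both mutant libraries were above both controls, with means of 5.11 ± 0.182 and 4.07 ± 0.189 FPKM (SD, n = 2 each). The log2 fold change was 0.32 (SE 0.11, 95% interval 0.04 to 0.60), with an unadjusted p of 0.0307 and an adjusted p of 0.769 in limma. In voom the unadjusted p was 0.0579 and the adjusted p 0.691.

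*Rrm2*, the regulatory subunit of ribonucleotide reductase, measured 1.03 and 0.922 FPKM in mutant and 0.779 and 0.626 FPKM in control libraries. It was higher in both mutant libraries, at a log2 fold change of 0.43 (SE 0.19) and a limma adjusted p of 0.809. *Rrm1*, the catalytic subunit of the same enzyme, had overlapping groups and measured 1.06 and 1.06 FPKM in mutant and 1.01 and 1.16 FPKM in control libraries. *Tyms*, thymidylate synthase and the lowest of this group, measured 0.378 and 0.545 FPKM in mutant and 0.422 and 0.517 FPKM in control libraries, with a log2 fold change of -0.03 (SE 0.27, limma adjusted p 0.987). The spread within each genotype exceeded the difference between them for *Tyms*. For *Rrm1* this held in the control libraries only, since its mutant libraries were nearly equal. The 4 genes summed to 7.45 and 7.76 FPKM in mutant and 6.41 and 6.24 FPKM in control libraries, a sum carried mainly by *Pcna*.

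**Figure D3:**
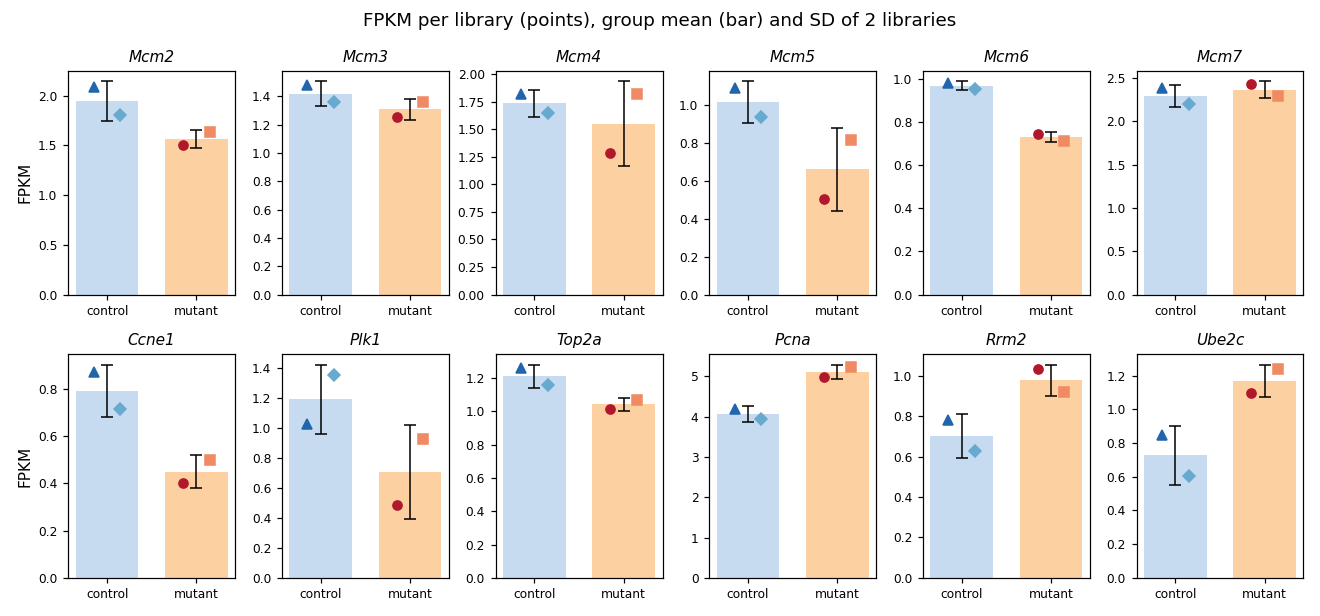
FPKM (y axis, starting at 0 in each panel) of the 6 MCM genes and of 6 other genes in control and mutant lenses. Symbols are libraries, bars are group means and error bars are the SD of 2 libraries. *Mcm2*, *Mcm5*, *Mcm6*, *Ccne1*, *Plk1* and *Top2a* were lower and *Pcna*, *Rrm2* and *Ube2c* higher in both mutant libraries, and 0 of the 12 passed the adjusted threshold.

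The kinases and cyclins of mitotic entry were divided. *Plk1*, a kinase that acts in centrosome maturation and spindle assembly, measured 0.485 and 0.929 FPKM in mutant and 1.03 and 1.36 FPKM in control libraries. Both mutant libraries were lower, but mutant replicate 2 lay close to control replicate 1. Its log2 fold change of -0.72 (SE 0.32, 95% interval -1.55 to 0.10) was the lowest of the 35 and had a limma adjusted p of 0.809. Leaving out mutant replicate 1 brought it to -0.32, the end of its range nearest to 0. A processed copy listed as *Plk-ps1* shares 14.8% of the 31-base words of *Plk1* transcripts and held 4 and 3 reads in mutant and 17 and 12 reads in control libraries, so assigning its reads to *Plk1* would keep both mutant libraries lower.

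*Ccnb1* and *Ccnb2*, the B-type cyclins that activate CDK1, had higher means in mutant lenses but did not separate clearly. *Ccnb1*, the lowest of the group, measured 0.479 and 0.412 FPKM in mutant and 0.402 and 0.360 FPKM in control libraries, at 0.18 on the log2 scale (SE 0.25, limma adjusted p 0.888). Its copy *Ccnb1-ps* held 0 and 1 reads in mutant and 12 and 7 reads in control libraries. With both summed and scaled for depth, the values were 38.01 and 33.65 reads in mutant and 43.56 and 35.74 reads in control libraries, and the groups overlapped. *Ccnb2* measured 1.10 and 1.001 FPKM in mutant and 1.21 and 0.602 FPKM in control libraries, a control spread that covers both mutant values. *Cdk1*, the mitotic kinase itself, was at 0.563 ± 0.0241 FPKM in mutant and 0.469 ± 0.118 FPKM in control lenses (SD, n = 2 each). *Aurka*, the centrosomal Aurora kinase and the highest of the group, measured 0.931 and 1.13 FPKM in mutant and 1.12 and 1.14 FPKM in control libraries, at a log2 fold change of -0.12 (SE 0.17, limma adjusted p 0.888). Its overlap comes from mutant replicate 2, which matched the controls.

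All 5 genes of chromosome structure and the chromosomal passenger complex had lower means in mutant lenses, against 49.3% of all genes tested. For 1 of them the groups did not overlap, which is 20%. Both mutant libraries lay below both controls for 18.3% of all genes tested, a similar share. *Mki67*, which encodes the Ki-67 antigen used as a marker of cycling cells, measured 1.14 and 1.21 FPKM in mutant and 1.18 and 1.32 FPKM in control libraries. Its groups overlapped and the difference was small, at a log2 fold change of -0.08 (SE 0.15, 95% interval -0.47 to 0.32) and a limma adjusted p of 0.925. *Top2a*, the topoisomerase that untangles replicated chromosomes, measured 1.01 and 1.07 FPKM in mutant and 1.26 and 1.16 FPKM in control libraries. It was lower in both mutant libraries, at a log2 fold change of -0.20 (SE 0.15, 95% interval -0.59 to 0.20) and a limma adjusted p of 0.810.

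The 3 passenger complex genes varied more between control pools than between genotypes. *Aurkb*, the kinase of the complex, measured 0.419 and 0.520 FPKM in mutant and 0.838 and 0.387 FPKM in control libraries. *Birc5*, survivin, measured 0.627 and 0.781 FPKM in mutant and 1.04 and 0.670 FPKM in control libraries. In both genes control replicate 1 stood above the other 3 libraries, which lay near one another. *Cdca8*, borealin and the lowest of the group, measured 0.401 and 0.326 FPKM in mutant and 0.368 and 0.451 FPKM in control libraries, at -0.14 on the log2 scale (SE 0.27, limma adjusted p 0.925).

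Kinetochore and checkpoint genes were among the least abundant of the list. *Cenpe*, a kinesin that moves chromosomes to the spindle equator, measured 0.254 and 0.231 FPKM in mutant and 0.340 and 0.340 FPKM in control libraries. *Cenpf*, a large kinetochore protein and the lowest of the group, measured 0.204 and 0.232 FPKM in mutant and 0.317 and 0.323 FPKM in control libraries. For both, the 2 genotypes were separated by more than the gap within either genotype. *Cenpf* had a log2 fold change of -0.40 (SE 0.31) with an adjusted p of 0.810 in limma, and of -0.55 with an unadjusted p of 0.0373 and an adjusted p of 0.635 in voom. The pseudocount of 0.1 FPKM added before the logarithm is large beside values of this size, so the limma fold understates the ratio.

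*Bub1b*, the checkpoint kinase BubR1 and the highest of the group, measured 0.289 and 0.502 FPKM in mutant and 0.613 and 0.495 FPKM in control libraries, at -0.43 on the log2 scale (SE 0.31, limma adjusted p 0.810). Mutant replicate 2 lay between the controls. *Bub1*, a second checkpoint kinase, measured 0.360 and 0.199 FPKM in mutant and 0.436 and 0.212 FPKM in control libraries, so its spread followed the replicates and not the genotypes. *Cenpa*, the centromeric histone, was the gene of this group with a higher mutant mean, at 0.390 ± 0.0774 FPKM against 0.344 ± 0.0639 FPKM (SD, n = 2 each). Summed over the 5 genes the level was 1.441 and 1.608 FPKM in mutant and 2.005 and 1.758 FPKM in control libraries.

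The spindle genes did not separate the genotypes. *Tpx2*, which nucleates spindle microtubules and was the higher of the pair, measured 0.660 and 0.513 FPKM in mutant and 0.869 and 0.580 FPKM in control libraries, at a log2 fold change of -0.25 (SE 0.26, limma adjusted p 0.842). *Nusap1*, which bundles spindle microtubules, measured 0.442 and 0.428 FPKM in mutant and 0.595 and 0.374 FPKM in control libraries, at -0.10 (SE 0.28, limma adjusted p 0.953). In both genes control replicate 1 was the highest library.

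The genes of anaphase promotion were higher on average in mutant lenses. *Ube2c*, the ubiquitin-conjugating enzyme of the anaphase-promoting complex, lies at chr2:164611818-164620742 and measured 1.10 and 1.24 FPKM in mutant and 0.850 and 0.605 FPKM in control libraries. Both mutant libraries were above both controls, with means of 1.17 ± 0.0971 and 0.728 ± 0.174 FPKM (SD, n = 2 each). The log2 fold change of 0.63 (SE 0.22, 95% interval 0.08 to 1.18) was the highest of the 35, with an unadjusted p of 0.0320 and an adjusted p of 0.769 in limma. In voom the unadjusted p was 0.0453 and the adjusted p 0.663. Without control replicate 2 the log2 fold change was 0.41 and without control replicate 1 it was 0.85. *Tnnc2*, the neighbouring gene that overlaps *Ube2c* on the other strand, held 0 reads in every library. *Cdc20*, the activator of the same complex and the higher of the pair, measured 1.29 and 0.875 FPKM in mutant and 0.798 and 1.10 FPKM in control libraries. Its groups overlapped, at a log2 fold change of 0.16 (SE 0.26, limma adjusted p 0.905).

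**Figure D4:**
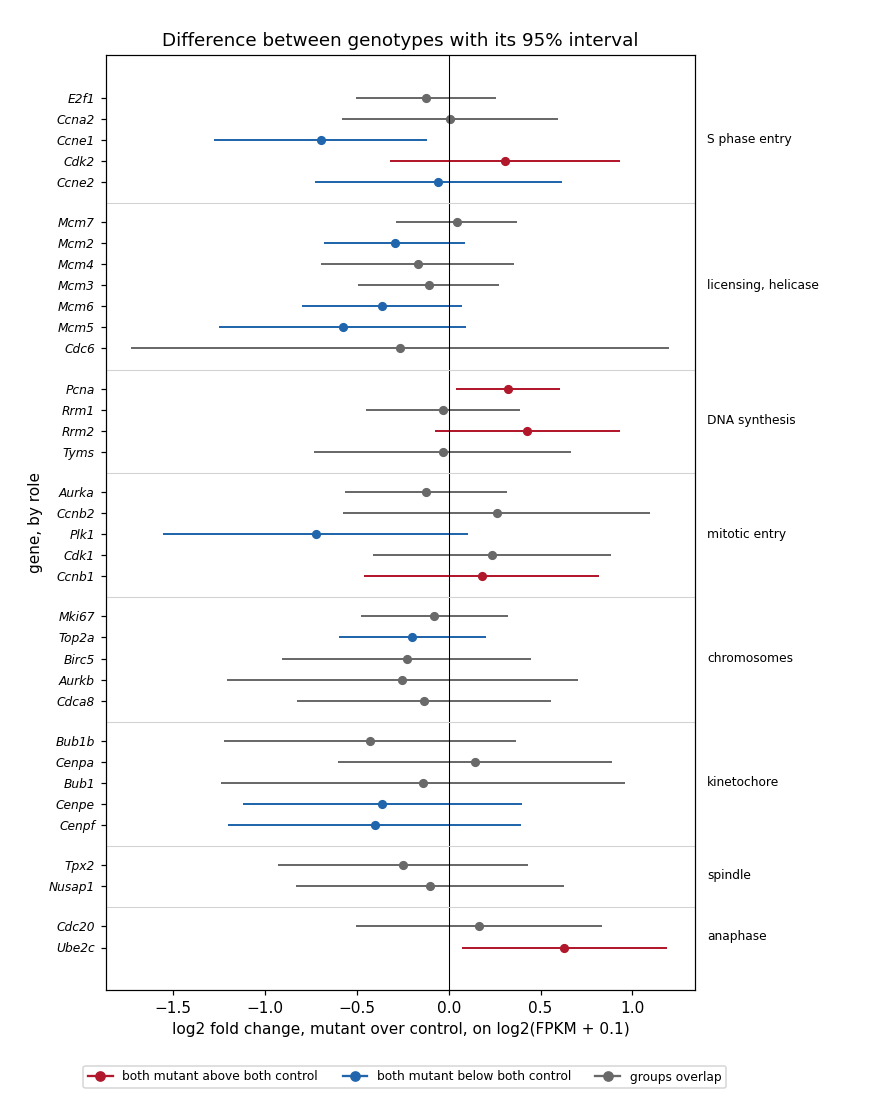
Log2 fold change of mutant over control on log2(FPKM + 0.1) (x axis) with its 95% interval in limma for each gene (y axis, by role), coloured by whether both mutant libraries lay above, below or among the controls. The intervals of *Ccne1*, *Pcna* and *Ube2c* exclude 0 before adjustment and those of the other 32 genes hold it.

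The precision of these differences was limited by the spread of the pools. The 95% interval of a log2 fold change reached 0.28 to 1.46 to either side, with a median of 0.64. The median gap between the replicates of a genotype, in log2 of FPKM without the pseudocount, was 0.218 in mutant and 0.285 in control lenses. The median difference between genotypes, without its sign and with the pseudocount added, was 0.230. The pseudocount makes differences smaller at low levels, so the gaps and the differences are not on the same scale. Taken in this way, the difference was smaller than the larger replicate gap for 26 of the 35 genes. That count may be too high. The 95% intervals of 32 of the 35 genes held 0. A change of the size seen in most listed genes therefore could not be told apart from 0 with these libraries.

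Across the listed genes, mutant replicate 1 stood lower than the other pools. Mutant replicate 1 was the lowest library for 16 of the 35 genes and lay below the gene's own mean for 23, with a median deviation of -0.11 on the log2 scale. Control replicate 1 was the highest library for 14 genes, with a median deviation of 0.15. Mutant replicate 2 deviated by a median of 0.002 and control replicate 2 by 0.05. Without mutant replicate 1 the median log2 fold change of the list was -0.06, and without control replicate 1 it was -0.09. Mutant replicate 1 also had the highest crystallin share, 62.9% of reads against 58.6% in mutant replicate 2 and 59.0 and 61.5% in the controls. *Cdh1*, which encodes the E-cadherin of the lens epithelium, measured 5.81 and 10.1 FPKM in mutant and 12.1 and 8.25 FPKM in control libraries, and was lowest in mutant replicate 1 and highest in control replicate 1. The part of these shifts in the results was not tested.

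**Figure D5:**
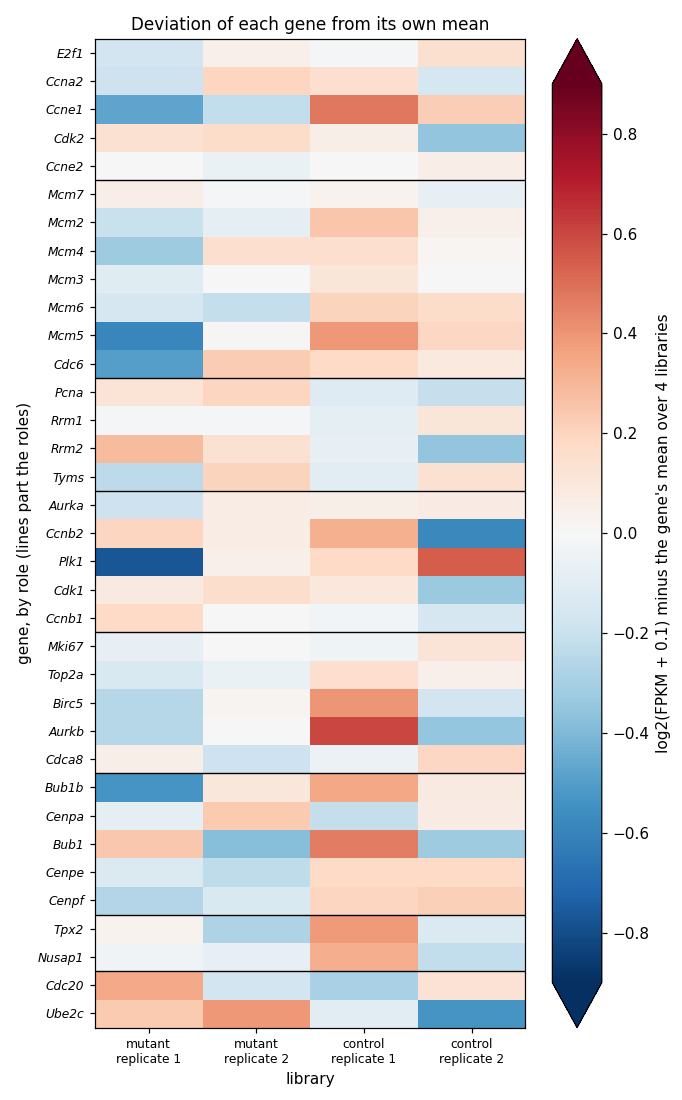
Deviation of log2(FPKM + 0.1) from the gene's mean over 4 libraries (colour) for each gene (y axis, by role) in each library (x axis). Mutant replicate 1 is below the mean in 23 genes and control replicate 1 in 12. The genes above it in mutant replicate 1 are *Pcna*, *Rrm2*, *Ube2c*, *Cdc20*, *Ccnb1*, *Ccnb2*, *Cdk1*, *Cdk2*, *Bub1*, *Mcm7*, *Tpx2* and *Cdca8*.

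The pools also differed in sex composition and in traces of other tissues. *Xist*, transcribed from the inactive X chromosome of females, measured 7.62 and 13.1 FPKM in mutant and 15.6 and 5.56 FPKM in control libraries, and the Y-linked *Eif2s3y* measured 7.10 and 4.82 FPKM in mutant and 3.02 and 7.13 FPKM in control libraries. Each genotype thus had 1 pool with more and 1 with less *Xist*. Of the 6 endothelial markers, 0 had an unadjusted limma p under 0.05, against 6.31% of all genes tested. All 6 had lower means in mutant lenses, against 49.3% of all genes tested. Their sums were 3.11 and 2.34 FPKM in mutant and 3.84 and 3.56 FPKM in control libraries. The 5 macrophage markers summed to 0.388 and 0.866 FPKM in mutant and 0.241 and 0.204 FPKM in control libraries. The 1 tested, *Cd68*, had an unadjusted limma p of 0.0491 and an adjusted p of 0.788. It made up most of the sum but rested on 6 and 16 reads in mutant and 4 and 2 reads in control libraries. The other macrophage markers averaged under the floor for testing. Photoreceptor markers summed to 0.0371 and 1.64 FPKM in mutant and 0.786 and 0.0934 FPKM in control libraries, and cornea markers to at most 0.0879 FPKM. The 4 pericyte markers summed to 3.96 and 3.15 FPKM in mutant and 5.09 and 4.71 FPKM in control libraries, and *Rgs5* alone of the 3 tested had an unadjusted limma p under 0.05 (0.0215, adjusted p 0.737). Red blood cell markers had the largest sums of these tissues, at 25.2 and 17.2 FPKM in mutant and 34.9 and 21.6 FPKM in control libraries, most of it from the globin gene *Hba-a1*, while its near copy *Hba-a2* is listed at 0 in every library. The part of these tissues in the levels of the listed genes was not tested.

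Genes outside the list but in the same processes were counted in the same fit. Of 36 other S phase genes, such as subunits of the GINS complex, replication factor C and the DNA polymerases, 0 had an unadjusted limma p under 0.05, 23 were higher and 13 lower, and the median log2 fold change was 0.05. The smallest p-values belonged to *Gins2*, a helicase cofactor at 0.397 and 0.586 FPKM in mutant and 0.791 and 0.702 FPKM in control libraries, and *Cdc7*, the kinase that fires origins, at 0.885 and 1.38 FPKM in mutant and 0.873 and 0.532 FPKM in control libraries. These lay in opposite directions, at -0.53 and 0.62 on the log2 scale, with limma adjusted p-values of 0.809 and 0.810. Of 38 other mitosis genes, 0 had an unadjusted limma p under 0.05, 17 were higher and 21 lower, and the median was -0.03. The smallest p-values there belonged to *Melk*, a mitotic kinase with a log2 fold change of -0.70, and *Tacc3*, a spindle protein with one of 0.36, both with a limma adjusted p of 0.810. By voom, 1 of the other S phase genes and 0 of the other mitosis genes had an unadjusted p under 0.05. Among all genes tested, such a p was given to 6.31% in limma and to 7.43% in voom. The share with a lower mean in mutant lenses was 36.1% of the other S phase genes and 55.3% of the other mitosis genes. Among all genes tested it was 49.3%.

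Upstream of S phase, the D-type cyclins that carry growth factor signals to the cycle were on average more abundant than any listed gene. *Ccnd1* measured 5.40 and 7.67 FPKM in mutant and 10.8 and 8.21 FPKM in control libraries, and *Ccnd2* 4.78 and 7.32 FPKM in mutant and 9.24 and 7.56 FPKM in control libraries. Both were lower in both mutant libraries and lowest in mutant replicate 1, with log2 fold changes of -0.54 (SE 0.22) and -0.49 (SE 0.23). The limma adjusted p-values were 0.800 and 0.809, and 2 of the 5 G1 cyclins and kinases had an unadjusted p under 0.05 in voom, against 7.43% of all genes. Of these 5 genes, 3 had higher and 2 lower means, a lower share of 40% against 49.3% of all genes tested. In limma 0 had an unadjusted p under 0.05, against 6.31% of all genes tested. Of 9 cell cycle inhibitors tested, 0 had such a p in limma or voom. Of the inhibitors, 4 were higher and 5 lower, a lower share of 55.6%. The smallest p-values belonged to *Cdkn2d*, an inhibitor of CDK4 and CDK6, at 0.26 on the log2 scale, and to *Cdkn1a*, which encodes p21, at 0.50 (SE 0.50). *Cdkn1a* lay near the floor for testing, at 0.126 and 0.216 FPKM in mutant and 0.0868 and 0.0916 FPKM in control libraries. These rest on 8 and 15 reads in mutant and 6 and 6 reads in control libraries, and the limma adjusted p was 0.836. *Cdkn1c*, which encodes p57 and marks cells leaving the cycle in the lens, was the most abundant by far at 134 and 133 FPKM in mutant and 122 and 130 FPKM in control libraries.

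Some of the listed genes share bases or letters with other genes. Of the 35, 15 overlap another gene of the table, 8 of them a protein-coding gene, for example *Ccne2* with *Ints8*, *Ccna2* with *Exosc9* and *Cdk2* with *Pmel*. Whether reads were counted by strand is not given in the sources used here, so reads in the shared stretches cannot be assigned with certainty. For 10 genes more than 10% of the 31-base words of their transcripts also occur in transcripts of another gene. For *Pcna*, the copy *Pcna-ps2* shares 23.3% of the words and held 6 and 1 reads in mutant and 4 and 2 reads in control libraries. Summed with it and scaled for depth, *Pcna* stood at 231 and 237 reads in mutant and 194 and 180 reads in control libraries, still higher in both mutant libraries.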

How the data were processed

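The 35 genes, their roles and the other gene lists were chosen with earlier results of these data known. The starting point was the table of FPKM that the authors deposited for 56748 genes in 4 lens libraries, with gene lengths and positions (mm39 per the submitters' processing notes) and 0 unused columns of sample values. The authors aligned reads with HISAT2, counted them with featureCounts and tested them with DESeq2. Each library was scaled by the median, over genes, of its ratio to the geometric mean of the 4 libraries, a factor of 1.006 for all 4. The 15997 genes averaging 0.1 FPKM or more were compared on log2(FPKM + 0.1) with limma 3.58.1 in R 4.3.3 (lmFit, eBayes with a trend, two-sided), all 4 libraries in 1 fit without covariates, and p-values were adjusted by Benjamini-Hochberg over all genes tested. Intervals are at 95%.

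Whole reads were recovered as FPKM times gene length divided by the value of 1 read. All values above 0 (100%) came within 0.02 reads of a whole number, and the libraries held 18561682 to 18878768 reads. On these reads voom called 14 genes at an adjusted p under 0.05. The scripts were tested on simulated data. Pools are the replicates, and p-values measure the spread between pools. Every listed gene is named, and full statistics go to genes with an unadjusted p under 0.05, to *Mki67*, *Top2a* and *Pcna*, and to the highest and lowest gene of each role. Other genes were named after their values were seen, apart from the 2 smallest p-values of each pathway list. Promoter sequences are from RefSeq on GRCm38.p6 and were not used with the table's coordinates.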

Additional observations from a re-analysis of the deposited data

How the results depend on the processing

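Of the 35 genes, 0 had an adjusted p under 0.05 in limma or voom under any of 14 other settings (2 pseudocounts, 2 filters, 2 scalings, no trend, voom, the replicate block, the sex covariate and 4 fits without a library), and the smallest adjusted p was 0.537. The median log2 fold change stayed below 0 in each, from -0.17 to -0.05. The number of genes with an unadjusted p under 0.05, 3 as reported, was 1 with libraries scaled to equal reads and 1 among the 11 genes averaging 1 FPKM or more. The shares of all genes in the same fits were 6.31% as reported, 4.76% with equal reads and 7.36% with a mean of at least 1 FPKM. That stricter floor left 1 gene above and 2 below the controls without overlap, because fewer genes were counted. Leaving out a library gave 7 to 11 genes above and 12 to 19 below without overlap. The shares of all genes that separate in these fits were not counted. The separation counts rise by construction, since 3 libraries overlap less often than 4, and the lone library is assumed to vary like the others. The sign was kept in every setting by 20 genes. Replicate numbers do not pair the libraries (correlation of replicate deviations -0.01). With the replicate block 3 genes had an unadjusted p under 0.05 in limma, *Ccne1*, *Plk1* and *Ube2c*, against 5.48% of all genes. With 18561682 to 18878768 reads, most on crystallins, a listed gene had 4 to 282 reads, which limits what could be detected.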
